A study of Mus musculus with 8 samples.

Results

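Transcripts of genes that process, destroy and translate RNA were compared between the hippocampus of Jade2-knockout mice and that of wild-type mice. Members were the rows of the deposited table whose gene symbol belongs to the SR splicing factors (Srsf), the hnRNP proteins, the Rbm proteins, the snRNP, Sf3 and Prpf components of the spliceosome, the DEAD and DEAH box helicases (Ddx, Dhx), the initiation factors (Eif), or the exosome, CCR4-NOT and nonsense-mediated decay factors, together with Matr3, Dis3l and unnamed models of the same loci. This gave 34 of 1679 listed transcripts, from 24 of 1404 loci; 29 rows carried a symbol and 5 were merged models without one. Both groups were C57BL/6 mice of 8 weeks, with 4 libraries labelled wild type and 4 labelled Jade2 knockout; the sources used here do not give how the allele was made, the sex of the animals or whether each library is a separate animal. Jade2 encodes a protein with PHD fingers that works with a histone acetyltransferase.

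Pre-mRNA is spliced by the spliceosome, built from small nuclear ribonucleoproteins (snRNPs) and remodelled by DEAD and DEAH box helicases. SR and hnRNP proteins bind the transcript and favour or oppose the use of particular exons, and many of their own genes also give isoforms with a premature stop codon that are cleared by nonsense-mediated decay. Finished mRNA is engaged for translation through the cap-binding factor eIF4E and its helicase partner eIF4A, and is removed by deadenylation (CCR4-NOT) and by the 3′ to 5′ exonucleases of the exosome. Neurons are known for extensive alternative splicing and for local control of translation.

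The table is a list that its authors had already selected: no row has an unadjusted p above 0.0498 or a log2 fold change smaller in size than 1.00 in the same contrast. A difference between the groups is therefore a condition of being listed, and what follows describes its shape, isoform by isoform, with no claim from the number of differences. Abundance is per transcript, taken as FPKM (fragments scaled by transcript length and by the fragments of the library), so levels of different transcripts can be set side by side. The annotated Jade2 transcript ENSMUST00000109091 was at 0 in all 4 knockouts and between 1.41 and 5.05 FPKM in the controls, while a merged model of that locus, MERGE.3721.1, was at 3.59 to 12.3 FPKM in the knockouts and at 0 in every control, so the locus still gave signal. Of 35 marker genes for brain cell types, 6 had a listed transcript. Those of Mag and Csf1r were lower and those of Acta2, Tagln, Ly6c1 and Col1a2 higher in the knockout. The microglial Csf1r transcript was at 0.0140 to 1.57 FPKM in the knockouts and 1.19 to 21.3 FPKM in the controls, and the oligodendrocyte Mag transcript at 0.619 to 2.42 and 2.53 to 2.97 FPKM. The endothelial and mural ones (Acta2, Tagln, Ly6c1) summed to 10.1 to 17.8 FPKM against 1.78 to 11.4 FPKM in the controls, and the part of these cell markers in the isoform differences was not tested. None of the 6 neuronal markers was among the listed transcripts, so the tissue label was not checked here. In whole tissue, fewer cells of a type and less RNA per cell cannot be told apart.

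The isoforms of these genes went in both directions. In the knockout 15 of the 34 had a higher and 19 a lower mean than in the control, so 44.1% were higher, against 48.5% of the whole table. The 4 knockout and 4 control values did not overlap for 12 of them (7 higher and 5 lower), which is 35.3%, next to 36.1% of all listed transcripts, so this share is near the background. The median difference in mean log2(FPKM + 0.5), knockout minus control, was -0.54 for these transcripts and -0.51 for the table. Levels were low: the median transcript had a mean of 1.08 FPKM over the 8 libraries, against 1.02 FPKM for the table, and 16 of the 34 had a value of 0 in at least 1 library.

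Of all rows in the authors' deposited table, 0.893% have an adjusted p below 0.05, and among these genes they were 1 isoform each of Matr3 and Eif4e. Their Matr3 isoform fell and their Eif4e isoform rose. When transcripts averaging 1 FPKM or more were refitted with limma and adjusted over the 104721 transcripts that the authors' values imply, 0 of 19 tested members passed an adjusted p of 0.05, the same as the 0% of all 849 tested. This adjustment ranked only the fitted rows and took every other transcript to have a larger p. Where an unfitted transcript had a smaller p, the adjusted p comes out too large, so the absence of calls says little. In that limma fit 11 of the 19 had an unadjusted p under 0.05, or 57.9%, against 70.6% of the 849. Limma took its variance from rows already selected on p in the same contrast. Both shares, and the SE and p-values that limma gives below, depend on that selection.

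**Figure D1:**
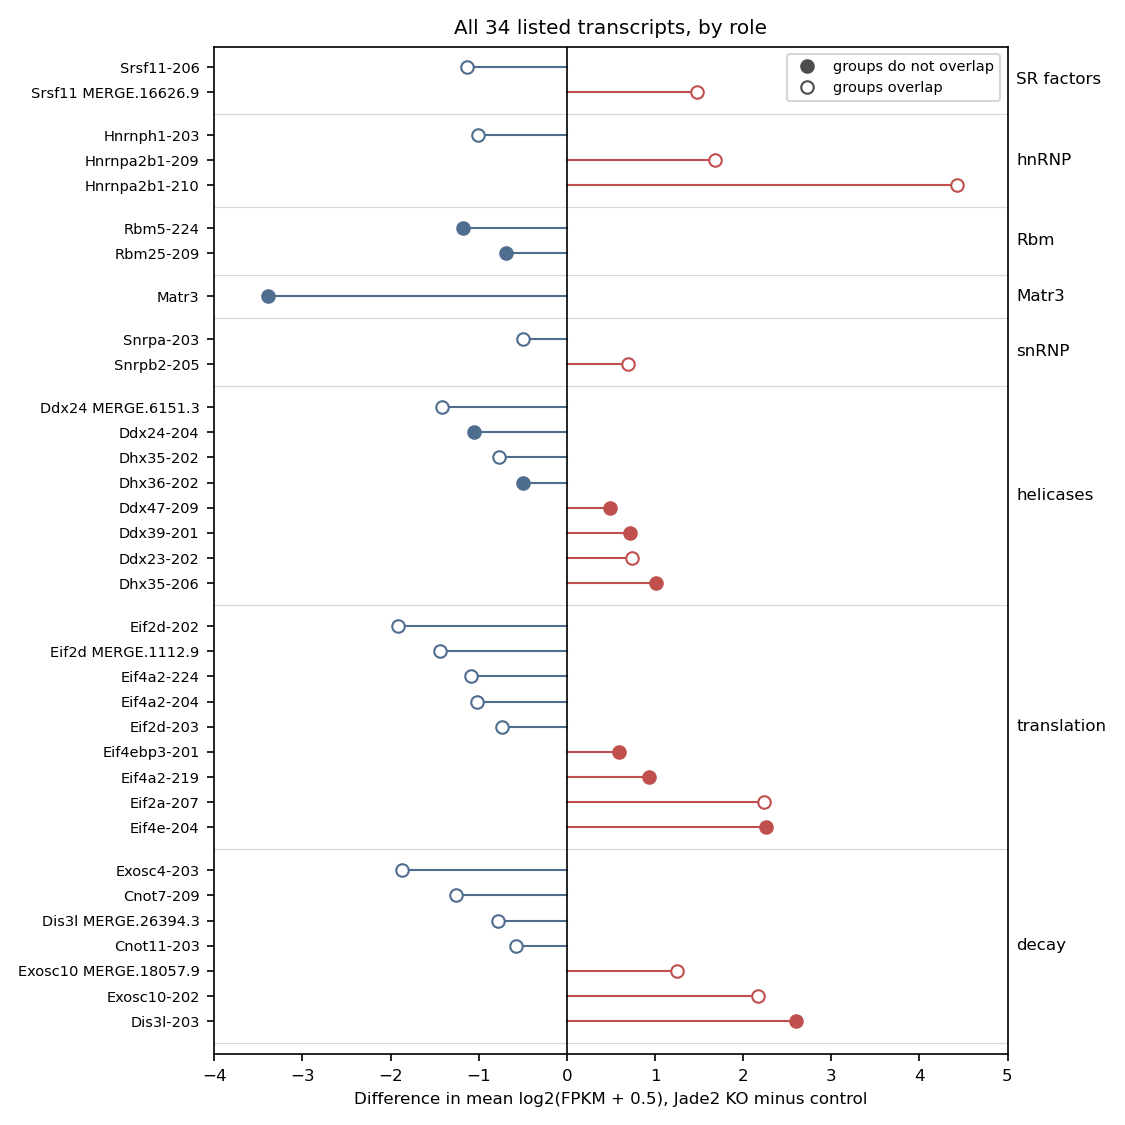
Each point is 1 listed transcript, placed at its difference in mean log2(FPKM + 0.5) between 4 Jade2-knockout and 4 control libraries and grouped by role; red is higher and blue lower in the knockout, and filled points mark transcripts whose groups do not overlap. Both directions occur in every role with 2 or more transcripts except Rbm, and Hnrnpa2b1-210 (4.43) and Matr3 (-3.39) lie farthest from 0.

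Among the RNA-binding proteins, Matr3, a nuclear matrix protein that binds RNA and represses exons, had the clearest separation. Its transcript ENSMUST00000187389 (mm10, chromosome 18, 35562445 to 35590738, plus strand) was at 6.26, 7.0, 2.93 and 3.95 FPKM in control replicates 1 to 4 and at 0, 0, 0 and 0.0087 FPKM in the knockouts; values are given in this replicate order throughout. Every control was far above every knockout. The log2 difference was -3.39 (SE 0.367, n = 4 per group), with an adjusted p of 0.00529 in the authors' deposited table and of 0.0759 in limma. This identifier is not in the GENCODE release used here (M21), so its exons were not analysed here. Its span also overlaps Gm28285 and Gm36989 on the same strand and a gene on the opposite one. Their reads may not be told apart from those of the Matr3 transcript. Other Matr3 isoforms were not analysed here, so the total output of the gene is unknown.

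The 2 Rbm transcripts were both lower in the knockout with no overlap, at levels under 1 FPKM except for a single control. Rbm5-224 (ENSMUST00000194801), a non-coding isoform of a regulator of apoptotic gene splicing, was at 0.763, 2.22, 0.403 and 0.293 FPKM in the controls. In the knockouts it lay between 0.0360 and 0.0653 FPKM, far below the lowest control. Rbm25-209 (ENSMUST00000182618), an incomplete model from the gene of a U1-associated factor, was at 0.163, 0.163, 0.179 and 0 FPKM in the knockouts and from 0.196 to 0.989 FPKM in the controls, so the gap between the groups was small. Neither reached the mean of 1 FPKM needed for limma.

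Hnrnpa2b1, which encodes the exon-silencing and RNA-trafficking proteins hnRNP A2 and B1, had 2 listed isoforms with an on-or-off pattern. Both lack the same exon of 120 bases, which is coding in the principal isoform Hnrnpa2b1-202 and lies at chr6:51464428-51464547 on the minus strand (GRCm38). It is shown, with the junction that replaces it (capitals mark the exon that follows), because its absence is the coding difference that the 2 listed isoforms share.
Skipped exon of Hnrnpa2b1: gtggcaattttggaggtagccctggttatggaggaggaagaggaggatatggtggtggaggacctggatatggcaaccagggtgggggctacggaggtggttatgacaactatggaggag
Hnrnpa2b1-210 junction: gaggaggacctggagGAAATTATGGAAGTG
The protein-coding Hnrnpa2b1-210 (ENSMUST00000204188) was at 31.3, 32.0, 27.9 and 31.1 FPKM in the 4 knockouts and at 0, 34, 0 and 0 FPKM in the controls. Control replicate 2 thus stood above all 4 knockouts while the other controls were listed at 0. Hnrnpa2b1-209 (ENSMUST00000204158), classed as a nonsense-mediated decay transcript, repeated this pattern at a lower level, with knockouts between 1.6 and 2.44 FPKM and controls at 0 apart from 1.80 FPKM in replicate 2. The log2 difference of Hnrnpa2b1-210 was 4.43 (SE 1.22, n = 4 per group; limma adjusted p = 1), and without control replicate 2 it was 5.96, with a limma adjusted p of 0.0169. Control replicate 2 is the only control above 0, so the smaller p follows from its removal and is no support. Leaving out any other single library gave no call. Neither isoform has a base or a splice junction that no other annotated Hnrnpa2b1 transcript holds, and the gene has 13 annotated transcripts.

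Hnrnph1 and Srsf11 also split by library rather than cleanly by genotype. Hnrnph1-203 (ENSMUST00000109142), with the same coding length as the principal isoform of this G-run-binding splicing factor but 2 untranslated first exons of its own, was at 3.20, 0.272, 0.969 and 2.04 FPKM in the controls. In the knockouts it was at 4.75 FPKM in replicate 1, above every control, and at 0 in the other 3. Srsf11, an SR-like factor, had isoforms in opposite directions. Srsf11-206 (ENSMUST00000126716), classed for nonsense-mediated decay, was at 0.0579, 1.16, 0.626 and 1.88 FPKM in the controls and at 0, 0.162, 0 and 0.158 FPKM in the knockouts. The merged model MERGE.16626.9 was at 3.13, 0.727, 3.97 and 0.411 FPKM in the knockouts and at 0.621, 0, 0.582 and 0 in the controls. For both Srsf11 transcripts the groups overlapped, the lower one by control replicate 1 and the higher one by knockout replicate 4. The spans of both also overlap Gm43362 on the same strand, over 2470 bases.

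**Figure D2:**
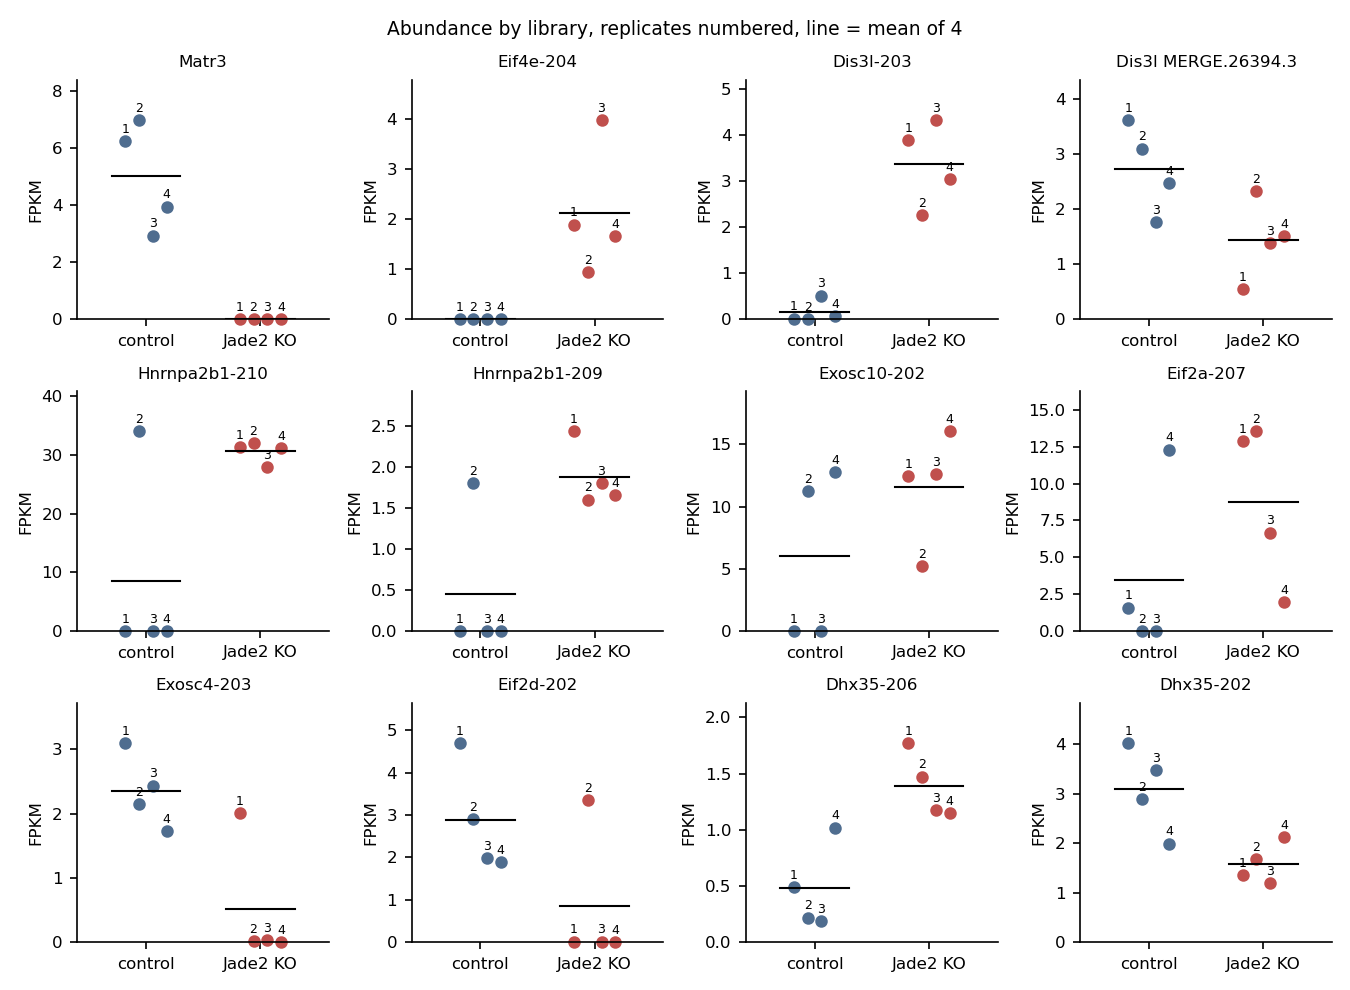
Abundance in FPKM (vertical axes, linear, from 0) of 12 transcripts in each control (blue) and Jade2-knockout (red) library, with replicate numbers beside the points and a line at the mean of 4. Matr3, Eif4e-204, Dis3l-203 and Dhx35-206 separate the groups, whereas single libraries cross over in Hnrnpa2b1 (control 2), Exosc4-203 (knockout 1) and Eif2d-202 (knockout 2).

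Of the spliceosome's core, only the U1 protein gene Snrpa and the U2 protein gene Snrpb2 were listed, and their groups overlapped. Snrpa-203 (ENSMUST00000126211) averaged 0.268 ± 0.249 FPKM in the knockouts against 0.553 ± 0.136 FPKM in the control (± SD of 4 libraries), with knockout replicate 2 at 0.630 FPKM among the controls. Snrpb2-205 (ENSMUST00000139114), a retained-intron isoform, was at 1.19, 0.910, 0.420 and 0.847 FPKM in the knockouts and at 0.238, 0.236, 0.572 and 0.230 FPKM in the controls. Only knockout replicate 3 and control replicate 3 broke the separation there. No Sf3 or Prpf transcript was listed.

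Retained introns recur across these genes, and the helicases hold 5 of the 9 such isoforms. The boundary of each retained stretch is printed 5′ to 3′, since reads across it come from RNA not spliced at that site. Such reads need not come from the listed isoform. Pre-mRNA holds the same boundary, and Eif4a2-219 has no base that is absent from every other annotated transcript of its gene. Exon bases are in lower case and retained intron bases in capitals. Windows come from the GENCODE M21 transcript sequences on GRCm38. Of the 8 shown, 7 give the exon followed by the start of the intron, and all 7 begin with GT; Dhx36-202 starts inside its intron, so its window gives the end of the intron followed by the exon. Rbm5-224, also classed as a retained intron, is not shown. Its added bases, 172 in all, lie at its start, and it has 20 exons against 25 in the principal isoform. The added stretches of Snrpb2-205, Ddx23-202, Ddx24-204 and Dhx36-202 also reach an end of the transcript, so exons do not flank them on both sides.
Snrpb2-205, chr2:143065339-143065368, plus strand: taaaccaatgGTGAGCTAACGCTGTTATTT
Ddx23-202, chr15:98658210-98658239, minus strand: ctgtagagagGTAAAGTGGCTCTTTGTCTG
Ddx24-204, chr12:103423852-103423881, minus strand: gctgagacagGTAAGGGCTGTTCTGTCTGT
Ddx47-209, chr6:135015374-135015403, plus strand: gtgcagtgtgGTAAGTGCCTAAGCAGGACA
Dhx35-206, chr2:158826408-158826437, plus strand: acctacaaagGTTTGAGAATGTTTGATTCT
Dhx36-202, chr3:62472110-62472139, minus strand: GTATTGTAACTTTTTCAAAGggtaaaagtt
Eif4a2-219, chr16:23108842-23108871, plus strand: tgtattaaagGTAAAACTCTATTGCCGTTA
Cnot7-209, chr8:40500732-40500761, minus strand: catttcacagGTAAAAAATAAATAAATAAA
The 9 retained-intron isoforms did not share a direction: 5 (Snrpb2, Ddx23, Ddx47, Dhx35 and Eif4a2) were higher and 4 (Ddx24, Dhx36, Cnot7 and Rbm5) lower in the knockout.

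The 8 helicase transcripts, from 6 genes, divided into 4 higher and 4 lower. The groups did not overlap for 5 of the 8, where 36.1% of all listed transcripts have no overlap, and nothing particular to helicases is read from so few. Dhx35, of a helicase found in the catalytic spliceosome, had isoforms in opposite directions. The retained-intron isoform Dhx35-206 (ENSMUST00000146797) was at 1.77, 1.47, 1.17 and 1.15 FPKM in the knockouts and at 0.491, 0.221, 0.187 and 1.02 FPKM in the controls, with no overlap although control replicate 4 came close. The principal coding isoform Dhx35-202 (ENSMUST00000109478) was at 1.35, 1.69, 1.19 and 2.13 FPKM in the knockouts and at 4.03, 2.89, 3.47 and 2.0 FPKM in the controls, where again control replicate 4 fell among the knockouts. Besides the retained stretch of 1485 bases, Dhx35-206 lacks 5 bases at the start of another exon. Those bases are in capitals in the junction of Dhx35-202, set beside that of Dhx35-206.
Dhx35-202 junction: gcccgtgttcaagCTTAGgaaccacatttt
Dhx35-206 junction: gcccgtgttcaaggaaccacatttt

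Ddx24, of a nucleolar helicase, had 2 listed transcripts, both lower in the knockout. Ddx24-204 (ENSMUST00000220705), which runs 3496 bases into an intron, was at 1.37, 0.438, 0.295 and 1.16 FPKM in the knockouts and at 2.50, 1.70, 1.73 and 2.44 FPKM in the controls, with no overlap. The merged model MERGE.6151.3 also overlaps Gm47260 on the same strand, over 3105 bases. It was at 2.38, 1.13, 1.11 and 4.65 FPKM in the knockouts and at 2.72, 7.63, 6.87 and 9.84 FPKM in the controls, and knockout replicate 4 exceeded control replicate 1. Their limma log2 differences were -1.06 (SE 0.393) and -1.42 (SE 0.559), each with an adjusted p of 1 (n = 4 per group). The other helicases fall outside the naming rule and were named after their values were seen. Ddx23-202, Ddx39-201 and Ddx47-209, from a U5-associated helicase, an mRNA export helicase and a ribosome biogenesis helicase, averaged 0.629 ± 0.305, 0.762 ± 0.216 and 0.515 ± 0.0398 FPKM in the knockouts against 0.165 ± 0.128, 0.285 ± 0.231 and 0.233 ± 0.148 FPKM in the control (± SD of 4 libraries). The Ddx39 groups were separated only by 0.544 against 0.542 FPKM. Dhx36-202, of a G-quadruplex helicase, averaged 0.431 ± 0.211 FPKM in the knockouts against 0.798 ± 0.137 FPKM in the control (± SD of 4 libraries), with no overlap.

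In the translation group, 4 of 9 transcripts were higher and 5 lower. Eif4e-204 (ENSMUST00000200020; mm10, chromosome 3, 138526425 to 138555399, plus strand), an isoform of the gene for the cap-binding protein, was at 1.89, 0.947, 3.99 and 1.66 FPKM in the 4 knockouts and in the controls at 0, 0, 0.0092 and 0 FPKM. The groups did not overlap, and the knockouts themselves spread about their mean of 2.12 ± 1.31 FPKM (SD, n = 4). Its adjusted p was 0.0189 in the authors' deposited table, while limma gave a log2 difference of 2.26 (SE 0.453, n = 4 per group) and an adjusted p of 1. What sets Eif4e-204 apart is its first exon, of which 843 untranslated bases occur in no other of the gene's 6 annotated transcripts. Its annotated coding part, 549 bases against 651 in Eif4e-201, is marked as incomplete at its 3′ end. Eif4ebp3, the single annotated transcript of a repressor that binds eIF4E, was named after its values were seen and averaged 0.712 ± 0.222 FPKM in the knockouts against 0.302 ± 0.132 FPKM in the control (± SD of 4 libraries), without overlap. Another annotated gene, AC115631.1, covers its whole span on the same strand, so reads of the other gene may not be told apart from it.

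Eif4a2, of the cap-complex helicase eIF4A2, had 1 isoform higher and 2 lower. The short retained-intron isoform Eif4a2-219 (ENSMUST00000149328) was at 0.712, 0.763, 0.277 and 1.09 FPKM in the knockouts and between 0.0743 and 0.174 FPKM in the controls, with no overlap. The lower isoforms Eif4a2-224 (ENSMUST00000187168) and Eif4a2-204 (ENSMUST00000123413) both carry an added exon of 107 bases that the principal isoform lacks. The window crosses into that exon, with the stop codon that it brings in capitals, and is identical in both isoforms.
Eif4a2-224 and Eif4a2-204, chr16:23111877-23112360, plus strand, intron left out: cgtgaaaactatattcacaggagtcgaTAG
Eif4a2-224 was at 1.45, 1.18, 1.10 and 0.866 FPKM in the controls and at 0, 0, 0.366 and 1.13 FPKM in the knockouts. Eif4a2-204 was at 0.893, 1.51, 1.78 and 1.68 FPKM in the controls and at 0, 0, 2.14 and 0.742 FPKM in the knockouts. Knockout replicates 1 and 2 were thus listed at 0 for both transcripts, while replicate 3 had the highest Eif4a2-204 of all 8 libraries. None of the listed Eif4a2 isoforms has a base or a splice junction that no other annotated transcript of the gene holds. The gene has 25 annotated transcripts, so a listed 0 may reflect how reads were assigned. Small nucleolar RNA genes lie inside the span of these isoforms on the same strand.

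All 3 listed transcripts of Eif2d, whose protein delivers tRNA to the ribosome independently of eIF2, had lower means in the knockout. Eif2d-202 (ENSMUST00000068805) was at 4.70, 2.91, 1.99 and 1.89 FPKM in the controls and at 0.0138, 3.34, 0.0205 and 0.0135 FPKM in the knockouts. Knockout replicate 2 was thus among the controls and the other 3 near 0. The merged model MERGE.1112.9, whose span also runs into Rassf5 on the opposite strand, was at 1.51, 1.38, 1.76 and 1.78 FPKM in the controls and at 0.0517, 0, 1.51 and 0.151 FPKM in the knockouts, with replicate 3 the exception here. The principal isoform Eif2d-203 (ENSMUST00000112446, named after its values were seen) averaged 1.29 ± 0.836 FPKM in the knockouts against 2.29 ± 0.226 FPKM in the control (± SD of 4 libraries), with knockout replicate 2 at 2.49 FPKM. Limma log2 differences of these 3 ran from -1.91 to -0.74, each with an adjusted p of 1.

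Eif2a-207 (ENSMUST00000154219), from the gene of an initiation factor that can also deliver the initiator tRNA, was named after its values were seen. It was at 12.9, 13.5, 6.68 and 1.97 FPKM in the knockouts and at 1.58, 0, 0 and 12.3 FPKM in the controls, so control replicate 4 matched the highest knockouts. The span of Eif2a-207 also overlaps 6720482G16Rik on the same strand, over 1192 bases. The isoform skips an exon of 119 bases and is classed for nonsense-mediated decay, and its junction, with the following exon in capitals, is held by no other annotated Eif2a transcript.
Eif2a-207, chr3:58537594-58541054, plus strand, intron and skipped exon left out: gagcaatggagaaaaCTTCTAAAGATGGCA

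Among the decay factors, 3 of 7 transcripts were higher and 4 lower, and only for Dis3l-203 did the groups not overlap. Dis3l encodes a cytoplasmic exonuclease of the exosome. Dis3l-203 (ENSMUST00000120760; mm10, chromosome 9, 64307011 to 64341153, minus strand) was at 3.88, 2.26, 4.33 and 3.04 FPKM in the knockouts and at 0.0149, 0, 0.514 and 0.0775 FPKM in the controls. The merged model of the locus, MERGE.26394.3, went the other way, at 0.552, 2.32, 1.38 and 1.5 FPKM in the knockouts and 3.61, 3.09, 1.76 and 2.47 FPKM in the controls, with overlap. The limma log2 differences were 2.60 (SE 0.385; adjusted p = 0.401) and -0.79 (SE 0.419; adjusted p = 1), with n = 4 per group. Dis3l-203 differs from the principal isoform Dis3l-208 by 445 upstream untranslated bases, and it codes for 249 fewer bases with the same end.

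Of the Exosc genes only Exosc4 and Exosc10 were listed, with means lower for the former and higher for the latter in the knockout. Exosc4-203 (ENSMUST00000230512), from the gene of a ring subunit, was at 3.10, 2.15, 2.44 and 1.73 FPKM in the controls and at 2.01, 0.0160, 0.0397 and 0 FPKM in the knockouts, where replicate 1 stood among the controls. It uses a donor site 4 bases downstream of that of Exosc4-201, which adds the bases in capitals, and it is classed for nonsense-mediated decay; Oplah overlaps it on the opposite strand.
Exosc4-203, chr15:76327651-76329042, plus strand, intron left out: cgggccgcacgagGCGAatccggggctccc
Exosc4-201, the same junction: cgggccgcacgagatccggggctccc
Exosc10-202 (ENSMUST00000076022), of the nuclear exosome nuclease and named after its values were seen, was at 12.4, 5.20, 12.6 and 16 FPKM in the knockouts and at 0, 11.2, 0 and 12.8 FPKM in the controls. Control replicates 2 and 4 were thus at the level of the knockouts, and the others were listed at 0. It leaves out an exon of 75 bases, and the junction that results, with the next exon in capitals, is unique to it among 8 annotated transcripts.
Exosc10-202, chr4:148575890-148578432, plus strand, intron and skipped exon left out: aacccatttcggatgATCAGCAACCGCTGG
The merged Exosc10 model MERGE.18057.9 was at 1.04, 3.0, 0.496 and 0.826 FPKM in the knockouts and at 0, 0.304, 0 and 0.621 FPKM in the controls, at 0 in the same control libraries as Exosc10-202.

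The listed CCR4-NOT transcripts were those of the deadenylase Cnot7 and of Cnot11, and no Upf or Smg transcript was listed. Cnot7-209 (ENSMUST00000144970), which retains an intron, was at 0.128, 0.528, 0.159 and 0.486 FPKM in the knockouts and at 0.864, 5.40, 1.41 and 0.401 FPKM in the controls. The groups overlapped, and control replicate 2 alone carried most of the control mean of 2.02 FPKM. Zdhhc2 overlaps this isoform on the opposite strand. Cnot11-203 (ENSMUST00000161515), named after its values were seen, averaged 0.165 ± 0.154 FPKM in the knockouts against 0.505 ± 0.30 FPKM in the control (± SD of 4 libraries), with overlap.

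The listed transcripts of each locus were also summed. Of the 24 loci 8 had 2 or more listed transcripts, and in 4 (Dhx35, Dis3l, Eif4a2 and Srsf11) these went in both directions. For Dhx35 the sum had a log2 difference of -0.22 (SE 0.149), at 2.98 ± 0.416 FPKM in the knockouts against 3.58 ± 0.690 FPKM in the control (± SD of 4 libraries; two-sided exact permutation p = 0.286), while the retained-intron isoform made up 47.0 ± 9.01% of it in the knockout and 14.2 ± 13.3% in the control (SD). For Dis3l the sum was 4.43, 4.58, 5.71 and 4.54 FPKM in the knockouts and 3.63, 3.09, 2.27 and 2.55 FPKM in the controls, with no overlap. The log2 difference of the sums was 0.66 (SE 0.149), and the exact permutation test (two-sided, 70 assignments) gave its lowest possible p of 0.0286, or 0.161 after adjustment over 214 loci. Dis3l-203 made up 69.9 ± 16.1% of the sum in the knockout and 6.52 ± 10.8% in the control (± SD of 4 libraries).

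The Srsf11 sum overlapped between the groups, at 3.13, 0.889, 3.97 and 0.569 FPKM in the knockouts and 0.679, 1.16, 1.21 and 1.88 FPKM in the controls. Its log2 difference was 0.40 (SE 0.548; two-sided exact permutation p = 0.514) and ran from 0.06 to 0.75 when a library was left out. The merged Srsf11 model made up 88.5 ± 13.8% of that sum in the knockout and 34.9 ± 44.0% in the control (± SD of 4 libraries), with controls from 0 to 91.5%. The Eif4a2 sum was 0.712, 0.763, 2.78 and 2.97 FPKM in the knockouts and 2.44 to 3.0 FPKM in the controls, so the 4 knockouts fell into a low and a control-like pair. The sums of Ddx24 and Eif2d were lower in the knockout, at 3.13 ± 2.08 against 8.86 ± 2.90 FPKM and 2.57 ± 2.36 against 6.77 ± 1.27 FPKM (± SD of 4 libraries), each with a two-sided exact permutation p of 0.0571. In both, the groups overlapped by a single knockout library. The Hnrnpa2b1 sum was between 29.8 and 33.8 FPKM in the knockouts and at 0, 35.8, 0 and 0 FPKM in the controls. Of all 214 loci with 2 or more listed transcripts, 0% passed an adjusted p of 0.05 in the exact permutation test, and 0 of these 8 did; 38 of the 214 and 1 of the 8 had an unadjusted p under 0.05. The median absolute log2 difference of the sums was 1.07 for the 8 and 0.63 for the 214. The lowest exact p that these group sizes allow, 0.0286, became 0.161 after adjustment with 38 of the 214 loci at it, so the absence of calls says little. Unlisted isoforms are not in these sums.

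**Figure D3:**
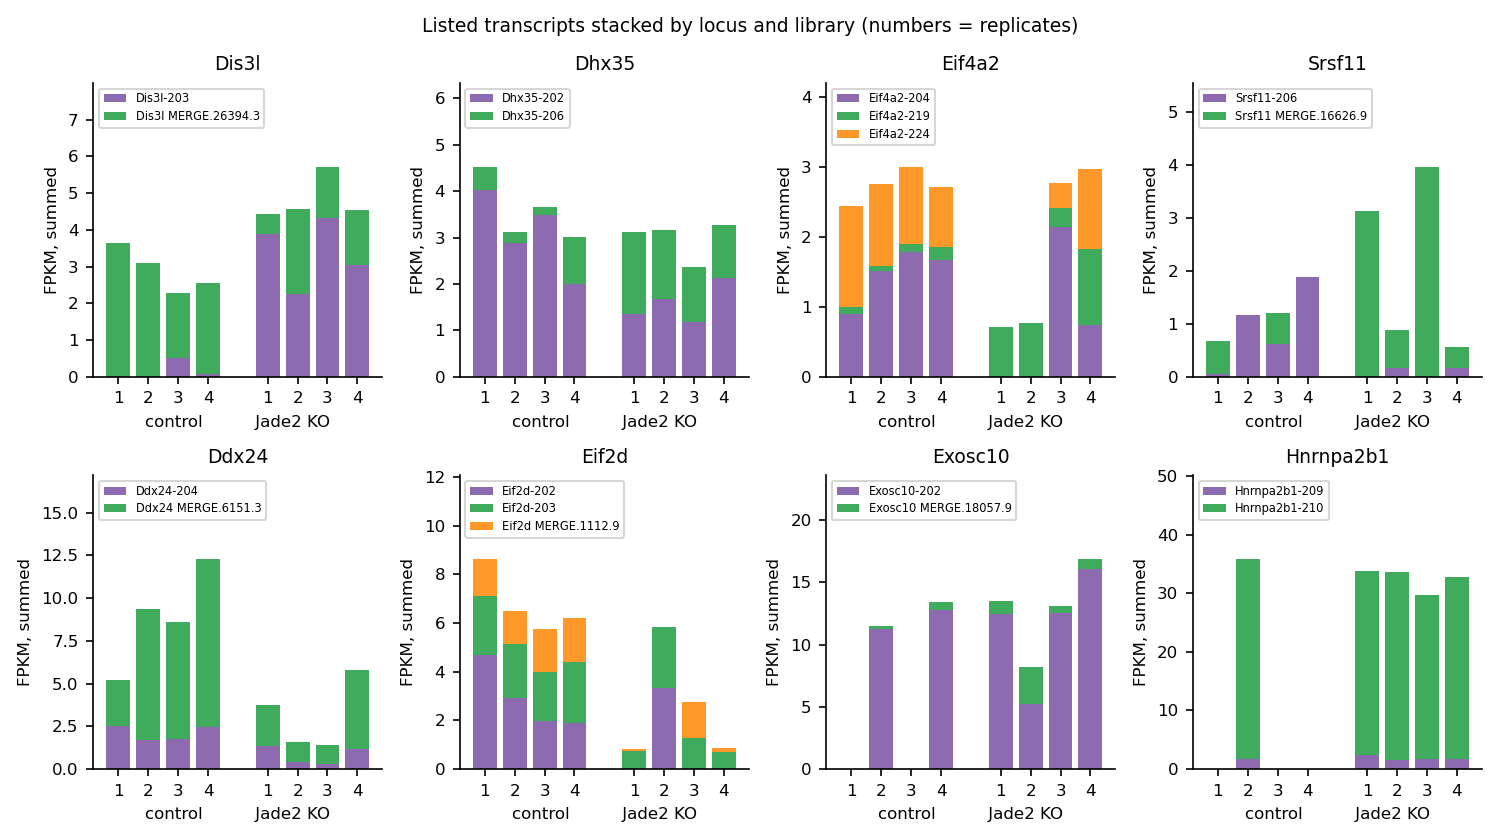
Listed transcripts of 8 loci stacked by library, in FPKM (vertical axes, linear), with control replicates 1 to 4 on the left and Jade2-knockout replicates 1 to 4 on the right of each panel. In Dis3l and Dhx35 the listed isoforms go in opposite directions and the Dis3l sum is higher in every knockout, Ddx24 and Eif2d have lower sums in most knockouts, and Hnrnpa2b1 and Exosc10 are empty in 3 and 2 controls.

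The annotated classes of these transcripts were set beside those of the whole table, which includes them, as a property that the choice of genes did not use. Of 28 found in GENCODE M21, all with the deposited coordinates, 14 were protein coding, 9 were retained introns and 5 were nonsense-mediated decay transcripts. Retained introns thus made up 32.1% and nonsense-mediated decay transcripts 17.9%, against 18.1% and 7.57% of the 1136 listed transcripts found, while protein-coding transcripts were 14 of 28 against 62.3% of the table. These shares describe the list and were not tested, and the share among all transcripts of these genes is not part of them. The nonsense-mediated decay transcripts were 2 higher (Hnrnpa2b1, Eif2a) and 3 lower (Srsf11, Eif4a2, Exosc4), and the protein-coding ones 6 higher and 8 lower. Only 4 of the 28 were the principal isoform of their gene (Dhx35-202, Ddx39-201, Eif2d-203 and Eif4ebp3-201). In sequence, 16 of the 28 hold bases found in no other annotated transcript of the gene, 5 more have a junction of their own, and 7 have neither.

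**Figure D4:**
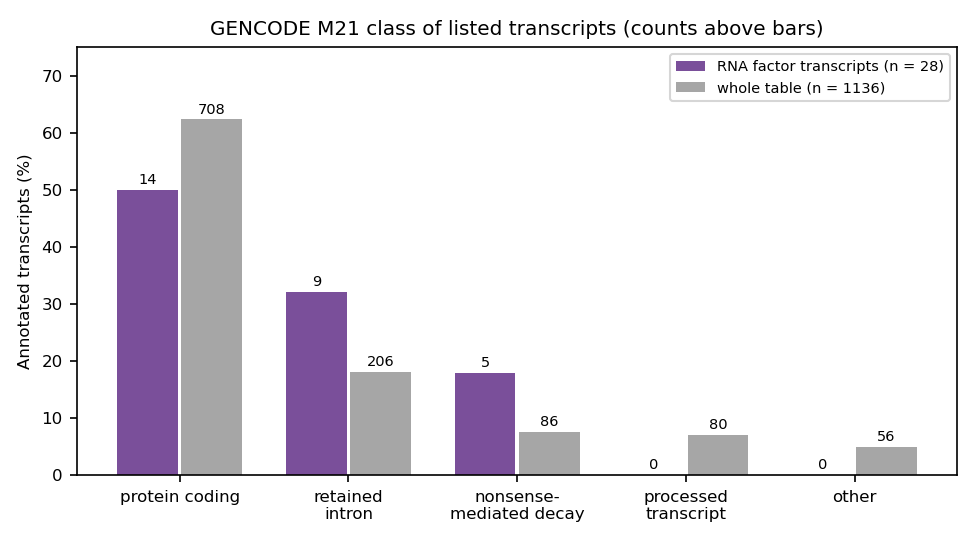
Share of annotated listed transcripts in each GENCODE M21 class (vertical axis, percent), for the RNA-factor transcripts (purple, n = 28) and for the whole table (grey, n = 1136), with counts above the bars. Retained-intron and nonsense-mediated decay transcripts take larger shares of the former, 32.1% and 17.9%, than of the latter, 18.1% and 7.57%.

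Of 223 other RNA-processing genes outside these families, 19 had a listed transcript, 22 transcripts in all, of which 9 were higher and 13 lower. The groups did not overlap for 5 of the 22, or 22.7%, against 36.1% of the table. None of the 13 tested passed limma at an adjusted p of 0.05, with 10 at an unadjusted p under 0.05 (76.9%, against 70.6% of the table), and the authors' deposited table has none of the 22 below that adjusted p. Clk1 ENSMUST00000151338, of a kinase of SR proteins, was at 3.28, 2.89, 2.44 and 3.61 FPKM in the knockouts and at 0, 0, 0 and 3.17 FPKM in the controls. Khdrbs1 ENSMUST00000129342, of the splicing regulator Sam68, was at 7.13, 14.6, 12.3 and 9.36 FPKM in the knockouts and at 0, 0.799, 0 and 9.92 FPKM in the controls. In both, control replicate 4 stood at the knockout level, as it did for Eif2a-207 and Exosc10-202. Eef1d, of an elongation factor subunit, had ENSMUST00000089681 higher, at 1.43 ± 0.624 against 0.191 ± 0.216 FPKM, and ENSMUST00000109975 lower, at 0.690 ± 1.38 against 1.74 ± 0.556 FPKM (± SD of 4 libraries). For ENSMUST00000109975 the groups overlapped, since knockout replicate 4, at 2.76 FPKM, was above every control and the other knockouts were at 0. Pcbp2 ENSMUST00000078404 and Elavl2 ENSMUST00000128599, of a poly(C)-binding and a neuronal AU-rich-element-binding protein, averaged 1.83 ± 0.648 and 0.244 ± 0.0992 FPKM in the knockouts against 5.19 ± 2.51 and 0.626 ± 0.186 FPKM in the control (± SD of 4 libraries).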

How the data were processed

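The submitters' processing notes name HISAT2, Cuffdiff and the mm10 build; versions, the strand setting and the test behind the p-values are not stated in the sources used here. The authors deposited 1 table of selected transcripts with an abundance per library, whose unit is not named and is taken as FPKM. Their log2 fold changes and p-values are in the same deposited table. It holds no counts, so depth and counting error are unknown; a listed 0 may stand for reads assigned to another isoform or for an estimate that failed.

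Groups came from the labels. Transcripts averaging 1 FPKM or more were fitted with limma 3.58.1 (R 4.3.3) on log2(FPKM + 0.5), with a variance trend and two-sided tests. Benjamini-Hochberg adjustment ran over the 104721 transcripts that the authors' adjusted p-values imply, with every transcript outside the fit taken to have a larger p. The variance trend came from rows of the selected list only. The log2(FPKM + pseudocount) scale makes changes of low transcripts look smaller. Sums of listed transcripts per locus were tested by a two-sided exact permutation test, adjusted over 214 loci. P-values measure only the spread between these libraries. The scripts were tested on simulated normal values, with no selection on p and with limma adjusted over the simulated transcripts only. Those tests therefore do not cover the adjustment used here. Exons, classes and sequences came from GENCODE M21 (GRCm38); Ensembl coordinates were compared with the table's. Named transcripts are those with an authors' adjusted p under 0.05, those of loci listed in both directions, and the 4 with the smallest authors' p in each role, 25 of 34. Members, lists and tests were chosen with earlier results of these data known. Python 3.11.15, pandas 2.3.3 and matplotlib 3.10.9 were used for the rest. Alternatives were other pseudocounts, filters, scaling and adjustment, a replicate block and each library left out.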

Additional observations from a re-analysis of the deposited data

Results flagged for a closer look

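In 12 of 68 groups of 4 values, or 17.6%, a single library lay apart, with the gap to its nearest neighbour, as a share of the group's range, above Dixon's 95% critical value. That value would flag about 1 in 20 groups, or 3.4 here, if the values were normally distributed. FPKM values with repeated zeros are not, so the 12 cannot be read against 3.4. Of the groups in the whole table, 17.2% met the same measure. In the controls the gap was 1 for Hnrnpa2b1-210 and 1 for Hnrnpa2b1-209 (both replicate 2), 0.872 for Eif2a-207 (replicate 4), 0.976 for Snrpb2-205 and 0.849 for Dis3l-203 (both replicate 3). It was also 1 for Eif4e-204 in control replicate 3, where the value itself was 0.0092 FPKM. In the knockouts it was 1 for Hnrnph1-203 and 0.980 for Exosc4-203 (both replicate 1), 0.998 for Eif2d-202 (replicate 2), 0.900 for the Eif2d model MERGE.1112.9 (replicate 3), 0.910 for Rbm25-209 (replicate 4, at 0) and 1 for Matr3 (replicate 4, at 0.0087 FPKM). The libraries apart were different ones from gene to gene.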

How the results depend on the processing

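Of the 19 tested transcripts, limma called 0. With no filter on low values it called 1, Matr3 (adjusted p = 0.0284), with a range for Matr3 over the alternatives from 0.000616 to 0.882. With adjustment over the listed transcripts only it called 6, which the selection of the list on p makes invalid as evidence. Leaving out each library in turn gave 0 to 1 calls, the 1 being Hnrnpa2b1-210 without control replicate 2. With the replicate number as a block, limma called 0 and the locus sums gave 0, where 4 pairs cannot go below an exact p of 0.125. Same-numbered libraries did not deviate together (correlations from -0.03 to 0.04), so the numbers are not taken as pairs, and 2 of 4 knockouts correlated best with their own number. Locus sums also gave 0 calls without each library, which shows no stability, since the lowest exact p was 0.161 after adjustment even with all libraries. The 12 transcripts without overlap became 14 to 17 when a library was left out (41.2% to 50% of the members, against 44.6% to 47.3% of the table under the same change), 11 with each library scaled to the same median (32.4% against 36.3%), and 4 of the 19 with a mean of at least 1 FPKM, or 21.1%, against 31.7% of such transcripts in the table. No log2 difference of a tested transcript or locus sum changed sign under the alternatives run. Depth is unknown, so for transcripts below 1 FPKM the share of counting error in these differences was not tested.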
